A study of Danio rerio with 6 samples.

Results

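Vascular endothelial growth factor (VEGF) ligands and their receptors were followed in dissected zebrafish hearts at 48 and 56 hours post fertilization (hpf). The 9 genes were chosen by name, as the rows whose gene name was *vegfaa*, *vegfab*, *vegfc*, *flt1*, *kdrl*, *kdr*, *flt4*, *nrp1a* or *nrp1b*, out of 29978 genes listed. Each name stood on a single row at both stages, and all 9 passed the filter on low counts. RNA was measured in 3 pools of hearts at 48 hpf and 3 at 56 hpf, with 30 hearts in a pool. The labels give the AB line for both stages and name no treatment. The methods give *Tg(myl7:EGFP)* embryos, in which a myocardial promoter drives the green reporter. They also state that all animals were treated with phenylthiourea (PTU) to prevent pigment, and name no treatment that differed between the stages. The labels name age as the difference between the 2 stages. The sample titles also carry codes whose meaning is not given. The code N1 stands on replicate 1 at 48 hpf and on replicate 3 at 56 hpf, and the other codes do not recur. Each title also holds an ESD number. These numbers run consecutively within a stage, so whatever they mark cannot be told apart from age. The study compared the stages to find the expression programme active while the valves of the atrioventricular canal begin to form.

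VEGF ligands are secreted and act on receptor tyrosine kinases at the endothelial surface. In vertebrates Vegfa signals mainly through VEGF receptor 2, whereas Flt1 (VEGF receptor 1) binds Vegfa tightly, transmits little signal and is taken to limit the ligand that reaches receptor 2. Vegfc signals mainly through Flt4 (VEGF receptor 3) and is known for its part in vein and lymphatic sprouting, and neuropilins bind VEGF and semaphorins as co-receptors. In the heart the receptors are expressed by the endocardium, the endothelial lining from which the valve leaflets arise. The zebrafish carries paired genes for several of these proteins, *vegfaa* and *vegfab* for Vegfa, *kdrl* and *kdr* for receptors of the receptor 2 type, and *nrp1a* and *nrp1b* for neuropilin 1.

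Among the receptors, *flt1* fell between the stages, and it was the only one of the 9 genes to pass the test. Values are normalized counts, in which the reads of a gene are scaled by the size factor of their library, and the test was limma on log2(normalized count + 1) with the replicate number as a block and Benjamini-Hochberg adjustment over 20805 genes. With 1 of 9 genes called lower, the background was 44 of 20805 genes called lower, or 0.211%, and 225 called in either direction, or 1.08%. By other tools the 9 genes gave 0 lower calls with edgeR's quasi-likelihood test, where 0.144% of all genes were called lower, 2 with the likelihood ratio test (2.55% of all genes) and 1 with DESeq2 (1.91%). At an unadjusted p under 0.05 limma gave 2 of 9 lower, against 7.32% of all genes. None of the 9 was called higher by limma, where 0.87% of all genes were, or by the other 3 tools, and unadjusted p-values under 0.05 gave 0 higher (11.2% of all genes). The fold changes of the 9 genes ran from -1.51 to 0.54 on the log2 scale, with 8 below 0 and 1 above, and their median was -0.48 where that of all genes tested was -0.01. Genes of different transcript length cannot be ranked by these counts, since no transcript lengths were used, and each gene is therefore compared with itself between pools.

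**Figure D1:**
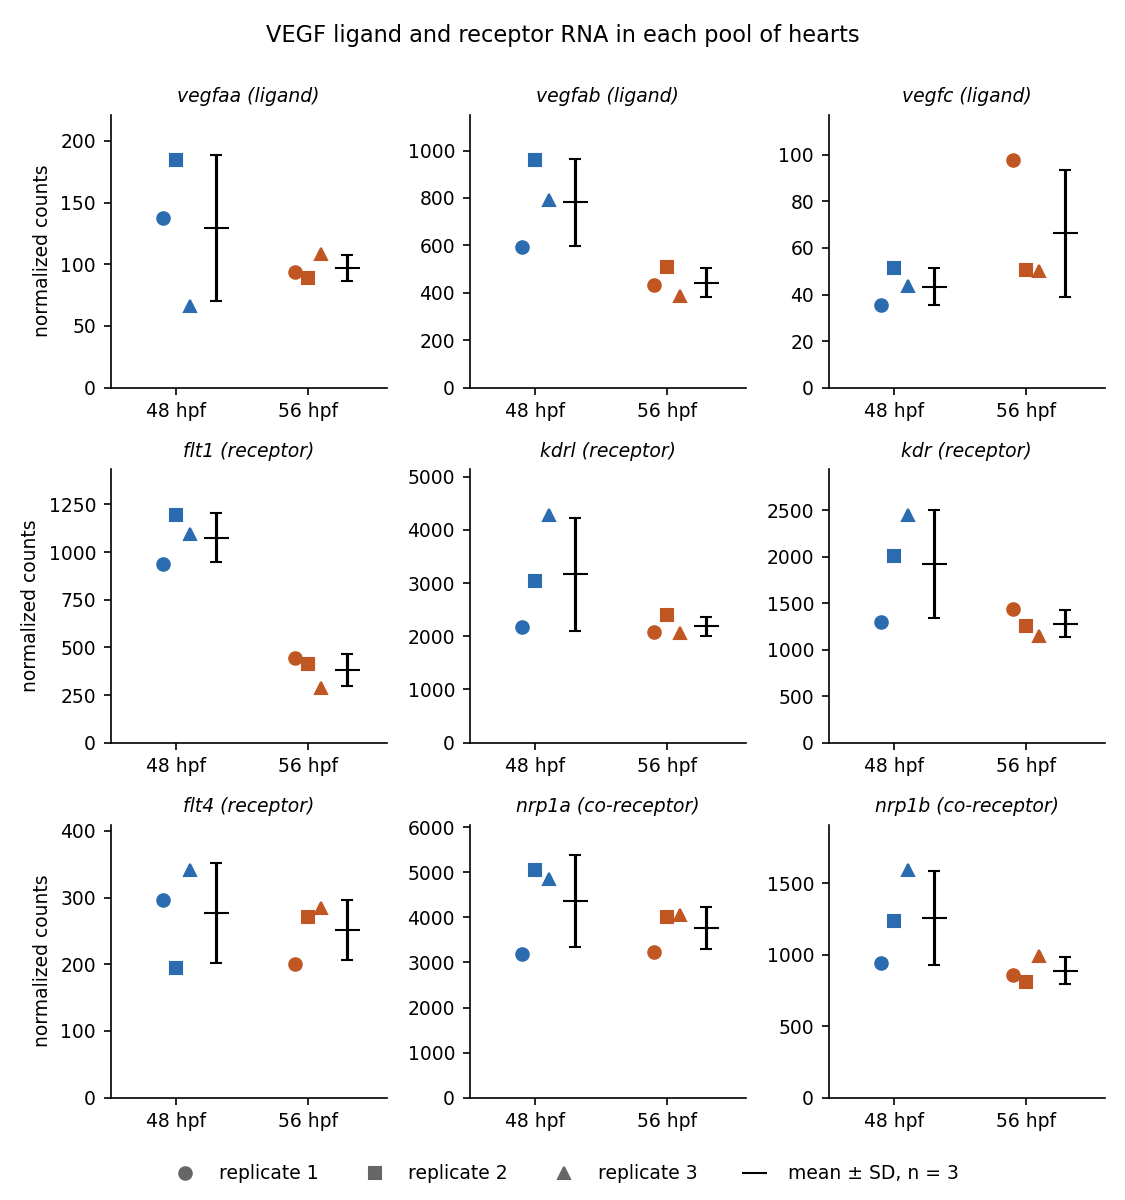
Normalized counts of the 9 genes in each pool at 48 hpf (blue) and 56 hpf (orange), on linear axes from 0, with marker shape for the replicate number and the mean ± SD of 3 pools in black. The *flt1* pools at 56 hpf lie between 289 and 446, below all 48 hpf pools, and the *vegfab* pools also lie apart, while the other 7 genes overlap between stages.

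*flt1* (ENSDARG00000019371), the decoy-type receptor of Vegfa, was at 938, 1194 and 1096 normalized counts in the 48 hpf pools and at 446, 413 and 289 in the 56 hpf pools, each in the order of replicates 1, 2 and 3. The stages did not overlap, and the lowest 48 hpf pool was 493 normalized counts above the highest 56 hpf pool. The mean went from 1076 ± 129 (SD, n = 3 pools) to 383 ± 82.8 (SD, n = 3), and the log2 fold change was -1.51 (standard error 0.23, 95% interval -2.05 to -0.97, adjusted p = 0.0397 from limma), or 2.84-fold lower at 56 hpf. As the lack of overlap requires, all 3 same-numbered pairs declined, at -1.07, -1.53 and -1.92 on the log2 scale. Of the 20805 genes tested, 390 had a lower log2 fold change, or 1.87%. The two-sided exact permutation test gave p = 0.1, the smallest that 3 pools against 3 allow. With the block, edgeR's quasi-likelihood test gave an adjusted p of 0.0516, just above the threshold, at the same fold change of -1.51. Over the 21 alternatives run for this gene the adjusted p ranged from 2.13e-05 to 0.410 and stayed under the threshold in 16, and without replicate 2, where the fold change was -1.49, it was 0.410. Both membrane and soluble forms of Flt1 come from this gene in vertebrates, and the gene-level counts do not separate them.

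*kdrl* (ENSDARG00000015815), the receptor 2 gene most used to mark zebrafish endothelium, had 2177, 3032 and 4281 normalized counts at 48 hpf and 2090, 2400 and 2063 at 56 hpf, in replicate order. The 48 hpf pools were spread widely, by 33.5% of their mean (SD), whereas the 56 hpf pools lay within 8.58%. Replicate 1 at 48 hpf stood below the highest 56 hpf pool, so the stages overlapped. The log2 fold change was -0.48 (standard error 0.24, 95% interval -1.06 to 0.09, adjusted p = 0.341 from limma), and the exact permutation test gave p = 0.2. Without replicate 3 at both stages the log2 fold change was -0.20 (adjusted p = 0.810).

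*kdr* (ENSDARG00000017321), the second gene of the receptor 2 type, had 1297, 2009 and 2446 normalized counts at 48 hpf and 1440, 1251 and 1150 at 56 hpf, in replicate order. As for *kdrl*, replicate 1 was the lowest of the 48 hpf pools, and here it was below its own partner at 56 hpf. The log2 fold change was -0.54 (standard error 0.26, 95% interval -1.17 to 0.09, adjusted p = 0.332 from limma). Without replicate 1 at both stages it was -0.88, with an adjusted p of 0.0312, and without replicate 3 it was -0.27, with an adjusted p of 0.739. The fit without replicate 1 called 778 of 20805 genes lower, and the fit without replicate 3 called 221. Over the 21 alternatives the adjusted p ran from 0.0312 to 0.913. *flt4* (ENSDARG00000015717), the Vegfc receptor gene, had 296, 194 and 341 normalized counts at 48 hpf and 201, 271 and 284 at 56 hpf, in replicate order. These pools overlapped almost entirely, with a log2 fold change of -0.12 (95% interval -0.76 to 0.54, adjusted p = 0.859 from limma).

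**Figure D2:**
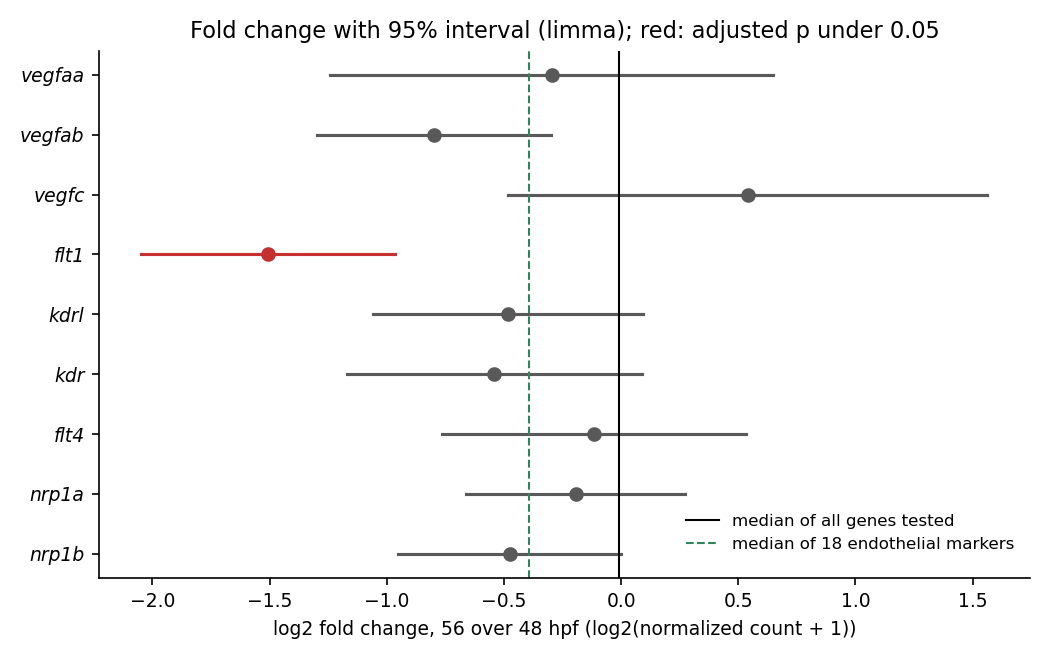
Log2 fold change of each gene, 56 over 48 hpf, with the 95% interval from limma (points and horizontal lines). The interval of *flt1* (red, adjusted p = 0.0397) runs from -2.05 to -0.97 and lies wholly below the medians of all genes tested (black, -0.01) and of 18 endothelial markers (green, -0.39).

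Among the ligands, *vegfab* was lower in every 56 hpf pool without passing the test, and *vegfaa* and *vegfc* overlapped between the stages. *vegfab* (ENSDARG00000034700) had 592, 960 and 792 normalized counts at 48 hpf and 434, 507 and 387 at 56 hpf, in replicate order. The lowest 48 hpf pool stood 84.8 normalized counts above the highest 56 hpf pool. The 48 hpf mean was 781 ± 184 (SD, n = 3 pools) and the 56 hpf mean 443 ± 60.4 (SD, n = 3), which gave a log2 fold change of -0.80 (standard error 0.21, 95% interval -1.30 to -0.30, adjusted p = 0.120 from limma). The interval of this single gene excludes 0 and its unadjusted p was 0.00703, but adjustment over all genes left it above the threshold (exact permutation test, p = 0.1). With the block the adjusted p was 0.0457 in edgeR's likelihood ratio test and 0.0801 in DESeq2, and over the 21 alternatives it ran from 0.0253 to 0.760. With *flt1* and *vegfab*, 2 of 9 genes had pools lower at 56 hpf with no overlap, where 11.1% of all genes tested did. In all 3 same-numbered pairs the 56 hpf pool was the lower for *flt1*, *vegfab*, *kdrl* and *nrp1b*, 4 of 9, where this held for 20.2% of all genes tested. For *flt1* and *vegfab* this follows from the lack of overlap.

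*vegfaa* (ENSDARG00000045971), the other Vegfa gene, had 137, 184 and 66.3 normalized counts at 48 hpf and 93.8, 88.7 and 109 at 56 hpf, in replicate order. The 48 hpf pools differed from each other by more than the stages did, with an SD of 46.0% of the mean, and both the highest and the lowest of the 6 values came from 48 hpf. The log2 fold change was -0.30 (95% interval -1.24 to 0.65, adjusted p = 0.731 from limma). *vegfc* (ENSDARG00000069640), the ligand of Flt4, was counted with only 27, 73 and 35 reads at 48 hpf and 98, 52 and 61 at 56 hpf, in replicate order. That is 35.3, 51.2 and 43.8 normalized counts at 48 hpf against 97.8, 50.7 and 50.2 at 56 hpf. It was the only one of the 9 with a fold change above 0, at 0.54 (95% interval -0.48 to 1.56, adjusted p = 0.542 from limma), and replicate 1 at 56 hpf alone stood clear of the other pools. Without replicate 1 at both stages the log2 fold change was 0.092 (adjusted p = 0.916).

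The share of reads between the paired genes was compared within each library, where it does not depend on the size factors. Since no transcript lengths were used, the shares can be compared between pools but do not rank the paired genes. *vegfab* took 81.1, 83.9 and 92.3% of the reads of the pair *vegfaa* plus *vegfab* at 48 hpf and 82.2, 85.1 and 78.1% at 56 hpf, in replicate order. The means were 85.8 ± 5.80% (SD, n = 3 pools) and 81.8 ± 3.54% (SD, n = 3), a difference that the exact permutation test put at p = 0.5. Replicate 3 at 48 hpf was high, with a 95% Wilson interval of 90.03 to 94.05%, which touches that of no other pool. *kdr* took 37.3, 39.9 and 36.4% of the reads of the pair *kdrl* plus *kdr* at 48 hpf and 40.8, 34.3 and 35.8% at 56 hpf. While *kdrl* itself ranged from 2063 to 4281 normalized counts over the pools, this share had means of 37.9 ± 1.80% (SD, n = 3) and 36.9 ± 3.41% (SD, n = 3; exact permutation test, p = 0.7). The Wilson intervals cover at most counting error and leave out the spread between pools. The reads carried no molecular identifiers, so amplified copies count as separate reads and the intervals may be too narrow.

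**Figure D3:**
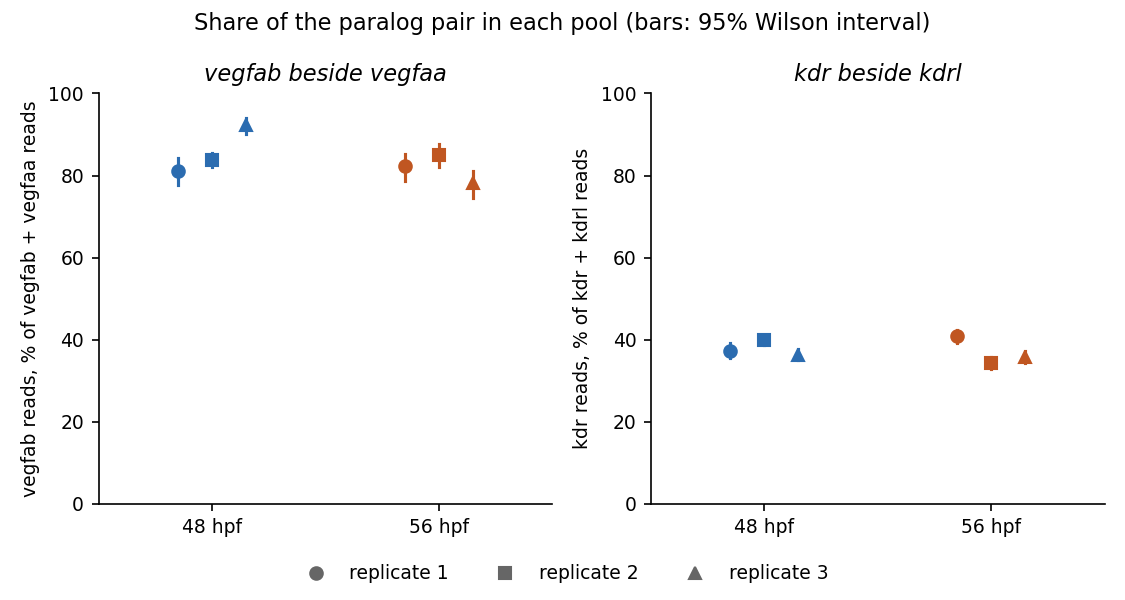
Percent of the pair's reads that came from *vegfab* (left) or *kdr* (right) in each pool, with 95% Wilson intervals as vertical bars, 48 hpf in blue and 56 hpf in orange. The *vegfab* share lies between 78.1 and 92.3% and the *kdr* share between 34.3 and 40.8%, with the stages overlapping in both.

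The balance of ligand to receptor RNA was taken as the reads of *vegfaa* plus *vegfab* over those of *flt1*, *kdrl* and *kdr*. The ratio was 0.165, 0.184 and 0.110 at 48 hpf and 0.133, 0.146 and 0.142 at 56 hpf, in replicate order. The 56 hpf pools fell within the range of the 48 hpf pools (log2 difference -0.09, exact permutation test, p = 0.8). Among the receptors the ratio of *flt1* to *kdrl* reads differed more between the stages. There were 43.1, 39.4 and 25.6 *flt1* reads per 100 *kdrl* reads at 48 hpf and 21.3, 17.2 and 14.0 at 56 hpf, in replicate order. This ratio was chosen after the values of both genes were seen and is given without a test. Since no transcript lengths were used, both ratios can be compared between pools but do not give relative transcript numbers.

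The neuropilin genes were the co-receptors measured. *nrp1b* (ENSDARG00000027290) had 942, 1238 and 1593 normalized counts at 48 hpf and 858, 811 and 994 at 56 hpf, in replicate order. Replicate 3 at 56 hpf was above replicate 1 at 48 hpf, so the stages overlapped, with a log2 fold change of -0.48 (standard error 0.20, 95% interval -0.95 to 0.00073, adjusted p = 0.271 from limma). *nrp1a* (ENSDARG00000071865) had 3195, 5052 and 4852 normalized counts at 48 hpf and 3226, 4016 and 4043 at 56 hpf, in replicate order. Its log2 fold change was -0.19 (95% interval -0.66 to 0.27, adjusted p = 0.641 from limma).

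Endothelial and endocardial RNA as a whole was lower in the 56 hpf pools than in 2 of the 3 pools at 48 hpf. Of 20 markers listed, 18 were found and tested, and all were above the floor of 3 reads. Limma called 0 of them, edgeR's quasi-likelihood test 0, and the likelihood ratio test and DESeq2 1 each, as lower. Of all genes tested these 2 tools called 2.55% and 1.91% lower. At an unadjusted p under 0.05 limma gave 3 lower and 1 higher, against 7.32% and 11.2% of all genes tested. The median log2 fold change of the 18 markers was -0.39, and 17 of 18 fold changes were below 0. As for *flt1*, 2 of the 18 had pools lower at 56 hpf with no overlap, where 11.1% of all genes tested did. These were *etv2* (log2 fold change -1.04) and *lmo2* (-0.82). The summed normalized counts of the list lay between 20886 and 38283 at 48 hpf and between 18851 and 23523 at 56 hpf. In replicate order the mean log2 level of the list was 9.21, 9.59 and 9.94 at 48 hpf and 9.27, 9.09 and 9.22 at 56 hpf. At 48 hpf replicate 3 was the highest and replicate 1 the lowest, as for *kdrl* and *kdr*. A further 10 arterial, venous and lymphatic markers had a median log2 fold change of -0.51, with 9 below 0 and 1 above. Limma called 0 of them, with 4 lower and 1 higher at an unadjusted p under 0.05 (7.32% and 11.2% of all genes tested). Pools were lower at 56 hpf with no overlap for 5 of the 10, against 11.1% of all genes tested. They were higher with no overlap for 1, a direction whose share over all genes was not counted. In pooled hearts fewer cells of a type cannot be told apart from less RNA per cell.

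Measured against the 18 endothelial and endocardial markers in the same pool, *flt1* was again lower in every 56 hpf pool, and *kdrl* and *kdr* overlapped between the stages. The log2 level of *flt1* minus the mean log2 level of the 18 markers was 0.67, 0.63 and 0.16 at 48 hpf and -0.46, -0.39 and -1.04 at 56 hpf, in replicate order. The stages did not overlap, with means of 0.49 ± 0.28 (SD, n = 3 pools) and -0.63 ± 0.35 (SD, n = 3) and a difference of -1.12 on the log2 scale (exact permutation test, p = 0.1, the smallest possible). The same difference was -0.09 for *kdrl* (exact permutation test, p = 0.6) and -0.15 for *kdr* (p = 0.3, exact). For *flt4* it was 0.27 (exact permutation test, p = 0.7). The *flt1* difference was -1.11 without replicate 1, -1.16 without replicate 2 and -1.08 without replicate 3. Leaving out each marker in turn gave -1.16 to -1.06, but each marker is only 1 of the 18 averaged. TMM scaling can hardly move a difference taken within a library, so it is no check of this value. The values depend on which markers are listed, and only the difference between stages can be read from them.

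**Figure D4:**
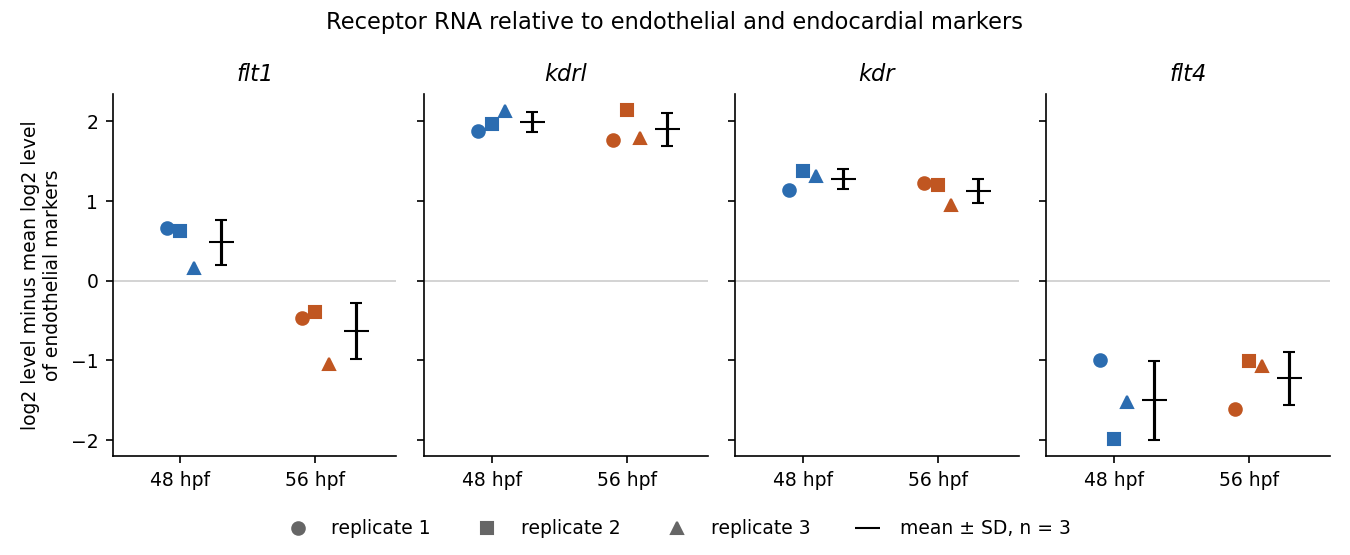
Log2 level of each receptor gene minus the mean log2 level of 18 endothelial and endocardial markers in the same pool, at 48 hpf (blue) and 56 hpf (orange), with the mean ± SD of 3 pools in black. The *flt1* pools lie between 0.16 and 0.67 at 48 hpf and between -1.04 and -0.39 at 56 hpf, and the other 3 receptors overlap between the stages.

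Markers of other cell types also differed between the pools. Over all genes tested limma called 0.87% higher and 0.211% lower. At an unadjusted p under 0.05 these shares were 11.2% and 7.32%. Of all 20805 genes the likelihood ratio test called 1209 higher and 530 lower, and DESeq2 1102 higher and 397 lower. The 10 myocardium markers had a median log2 fold change of -0.70, with 10 of 10 below 0, and 0 called by limma or the quasi-likelihood test, 1 by the likelihood ratio test and 2 by DESeq2 (2 with an unadjusted limma p under 0.05). Their mean log2 level was 14.3 in replicate 1 at 48 hpf, close to the 14.4 to 14.5 of the 56 hpf pools, and 15.5 and 15.7 in the other two 48 hpf pools. Replicate 1 at 48 hpf thus stood apart from its group in the myocardial markers. In fits without the block, the log2 fold change of *flt1* was -1.60 without that pool (adjusted p = 0.0143 from limma), -1.43 without replicate 2 at 48 hpf (0.0852) and -1.50 without replicate 3 at 48 hpf (0.0278). That of *vegfab* was -0.99 (adjusted p = 0.0399 from limma), -0.64 (0.364) and -0.78 (0.175) in the same fits, so its call came and went with the pool left out. The skeletal muscle markers had a median of 2.87 (7 of 12 called higher), with summed levels of 4840 to 10668 normalized counts at 48 hpf and 12927 to 19226 at 56 hpf. The cartilage markers had a median of 3.20 (5 of 7 called higher), with sums of 1437 to 3811 at 48 hpf and 4890 to 5608 at 56 hpf. Of 8 epidermis markers limma called 0 (4 with an unadjusted p under 0.05 and 6 called by DESeq2, all higher), with sums of 145985 to 386035 at 48 hpf and 425708 to 713038 at 56 hpf. The 5 epicardium markers were all above 0 (median 0.91), with 0 called by limma, 3 at an unadjusted p under 0.05 and 2 called by DESeq2. The 7 liver and yolk markers tested were also all above 0 (median 1.096, 0 called by limma, 4 at an unadjusted p under 0.05), and their mean log2 level was 9.76, 7.17 and 8.76 at 48 hpf and 10.9, 6.83 and 10.7 at 56 hpf, in replicate order. Replicate 2 was the lowest at both stages. The 8 blood markers had a median of -1.43 (3 called lower), with sums of 24161 to 34988 at 48 hpf and 5168 to 18306 at 56 hpf. The part of these cells in the values of the VEGF genes was not tested.

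Of 103 further symbols listed for the VEGF pathway, 74 were found on a single row and 73 were tested. Limma called 1 higher and none lower, where 0.87% and 0.211% of all genes tested were called. At an unadjusted p under 0.05 it gave 11 higher and 6 lower, against 11.2% and 7.32% of all genes. The quasi-likelihood test called 0. The likelihood ratio test called 6 higher and 4 lower, where it called 1209 and 530 of all 20805 genes. DESeq2 called 4 higher and 4 lower, where it called 1102 and 397 of all genes. The median log2 fold change of the 73 was -0.06, beside -0.48 for the 9 ligands and receptors and -0.01 for all genes tested. The gene that rose was *nr4a1*, an orphan nuclear receptor gene induced by VEGF in cultured mammalian endothelial cells. It had 39.3, 124 and 85.0 normalized counts at 48 hpf and 217, 353 and 285 at 56 hpf, in replicate order, without overlap. Its log2 fold change was 1.89 (standard error 0.30, adjusted p = 0.0449 from limma), and the adjusted p was 0.0517 without the block and 0.0524 by the quasi-likelihood test. The calls depended on the block, since without it limma called *itgb3a* (adjusted p = 0.0149) and *epas1a* (0.0371) higher and *egln2* (0.0248) and *angpt1* (0.0306) lower, and did not call *nr4a1*. *angpt1*, for the Tie2 ligand angiopoietin 1, was named after its values were seen, and had 836, 1041 and 1029 normalized counts at 48 hpf and 409, 479 and 505 at 56 hpf, in replicate order (log2 fold change -1.06, adjusted p = 0.0608 from limma with the block).

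In the list of further ligands and ligand processing, 4 genes were tested and 0 called by limma. At an unadjusted p under 0.05 limma gave 1 lower and 1 higher, against 7.32% and 11.2% of all genes tested. *adamts3*, which encodes a protease that in mammals activates Vegfc, had 175, 232 and 290 normalized counts at 48 hpf and 85.8, 136 and 107 at 56 hpf, in replicate order (log2 fold change -1.07, adjusted p = 0.109 from limma). All 3 pools at 56 hpf were below all 3 at 48 hpf. *vegfbb*, a Vegfb ligand gene, had 6, 12 and 12 reads at 48 hpf and 39, 26 and 73 at 56 hpf, in replicate order (log2 fold change 1.86, adjusted p = 0.120 from limma). It was higher in every 56 hpf pool, at low counts. The likelihood ratio test called both genes, and DESeq2 called *adamts3*.

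Of 12 further co-receptors and partners limma called 0. At an unadjusted p under 0.05 it gave 4 higher and 1 lower, against 11.2% and 7.32% of all genes tested. The smallest p of these 12 belonged to *itgb3a*, for an integrin beta 3 chain, with 800, 512 and 469 normalized counts at 48 hpf and 1493, 2550 and 2496 at 56 hpf, in replicate order (log2 fold change 1.87, adjusted p = 0.0575 from limma). All 3 pools at 56 hpf were above all 3 at 48 hpf, and the adjusted p was 4.8e-05 by the likelihood ratio test, 4.4e-06 by DESeq2 and 0.0756 by the quasi-likelihood test. Next came *gpc1b*, for the heparan sulphate proteoglycan glypican 1, with a log2 fold change of 0.94 (adjusted p = 0.115 from limma, 0.0307 by the likelihood ratio test and 0.0482 by DESeq2). The 28 genes of signal transduction, the kinases and adaptors downstream of the receptors, had a median of 0.12. Limma, the likelihood ratio test and DESeq2 called 0 of them. At an unadjusted p under 0.05 limma gave 2 higher and 1 lower, against 11.2% and 7.32% of all genes tested. The smallest p values among the 28 were those of *hsp90aa1.2*, for a chaperone (log2 fold change -1.03, adjusted p = 0.187 from limma), and *fyna*, for a Src family kinase (log2 fold change 1.09, adjusted p = 0.237).

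The hypoxia arm, which controls *Vegfa* transcription in vertebrates, held 12 genes tested, with 0 called by limma. At an unadjusted p under 0.05 limma gave 2 higher and 2 lower, against 11.2% and 7.32% of all genes tested. *egln2*, for a prolyl hydroxylase that marks hypoxia-inducible factors for decay, had 2530, 4000 and 2065 normalized counts at 48 hpf and 1140, 747 and 850 at 56 hpf, in replicate order (log2 fold change -1.62, adjusted p = 0.0609 from limma). *epas1a*, for a hypoxia-inducible factor alpha subunit, had 2238, 1132 and 917 normalized counts at 48 hpf and 4087, 3551 and 4339 at 56 hpf (log2 fold change 1.59, adjusted p = 0.0632). Neither gene overlapped between the stages. Both were called by the likelihood ratio test and DESeq2, and neither by the quasi-likelihood test. They had the smallest p of the list, in which 8 of 12 fold changes were below 0 and the median was -0.36. *hif1an* was also lower at 56 hpf without overlap (log2 fold change -1.29, adjusted p = 0.0858 from limma). The list of transcription factors and target genes held *nr4a1* among 17 tested, with a median of -0.33.

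**Figure D5:**
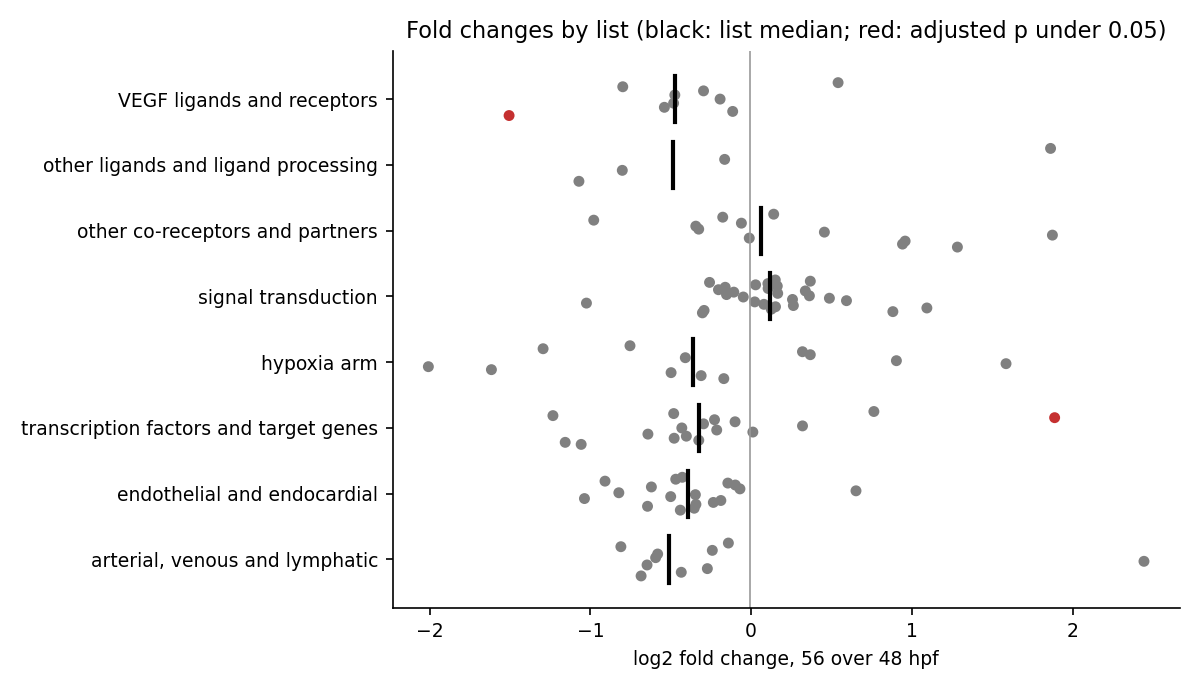
Log2 fold change, 56 over 48 hpf, of each tested gene (points) in the VEGF ligands and receptors, the 5 further pathway lists and 2 lists of endothelial markers, with the list median as a black bar, the median of all genes as a grey line and genes with an adjusted p under 0.05 in red. The red points are *flt1* at -1.51 and *nr4a1* at 1.89, and the median of the VEGF ligands and receptors, -0.48, lies near the -0.39 of the endothelial and endocardial list.

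The genes whose log2 levels followed *kdrl* most closely over the 6 pools, among 12451 genes with a mean of at least 100 normalized counts, were *bicd2* (Pearson's r = 0.997), *sh3kbp1* (0.997), *RSPH1* (0.994), *BX321921.1* (0.986) and *serpina10a* (0.986). None of these 5 was called between the stages by limma. For *vegfaa* they were *kpna5* (Pearson's r = 0.986), *histh1l* (0.969), *uso1* (0.966), *mpdu1a* (0.963) and *terfa* (0.962). The pools differed in stage, in depth and in the levels of cell type markers. With *kdrl* 71 genes exceeded r = 0.95, and with *vegfaa* 7 did, so these are descriptions over 6 points only.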

How the data were processed

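By the methods, single-end reads were mapped to Zv9 with Tophat. Unique alignments were counted on Ensembl genes with HTSeq, and the authors deposited a signal for each gene and library, which is its count scaled by that library's size factor. The methods and labels describe different library kits, and whether strand was used is not given in the sources used here, so genes that overlap others are uncertain. In the GRCz12tu annotation of RefSeq a gene overlaps *vegfaa*, *vegfc*, *kdr*, *nrp1a* and *nrp1b*. Submitters' processing notes name CASAVA 1.8.2, Bowtie2 2.1.0, HTSeq 0.5.4p3 and DESeq 1.10.1. The methods name Tophat with bowtie and another version of HTSeq, and which of the descriptions applies to the deposited values is not given.

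Each deposited value corresponded to a whole number of reads for 100% of genes (tolerance 0.01 reads), which recovered 14369087 to 26942838 reads per library. These were divided by size factors drawn here (median of ratios). Genes were kept by filterByExpr (minimum count 10, minimum total 15) and tested with limma 3.58.1 (R 4.3.3) with a trend, a pseudocount of 1, the replicate number as a block and a threshold of 0.05. The block was used because the authors adjusted for baseline differences among experiments, and the replicate number is only inferred to mark one. The title code N1 is shared by pools of different replicate number, and its meaning is not given. The labels do not say that pools came from separate clutches, so p-values measure only the spread between these pools. Alternatives were edgeR 4.0.16, DESeq2 1.42.0, no block, TMM, the deposited scale, pseudocounts of 0.5 and 10, other filters, thinned reads and left-out pools. Single values were compared by two-sided exact permutation tests (scipy 1.17.1). The fits were tested on simulated data. Genes and lists were chosen with earlier results of these data known. All 9 members are named, with pathway genes past the threshold or else the 2 with the smallest p in a list, and the 5 genes nearest *kdrl* and *vegfaa*. Pathway symbols found on 2 rows were left out.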

Additional observations from a re-analysis of the deposited data

How the results depend on the processing

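The 9 genes gave 1 lower and 0 higher calls. The 1 lower call became 0 by edgeR's quasi-likelihood test with the block and 2 by its likelihood ratio test, and ran from 0 to 3 over the leave-one-out fits. The 3 came from the fit without replicate 1, where 778 of 20805 genes were called lower. The leave-one-out fits with 0 called between 1 and 11 of all genes lower. The lost call was that of *flt1*, which was below 0 in 21 of 21 alternatives (-1.72 to -1.30). The call was lost without replicate 2 (adjusted p = 0.410 from limma), where the calls over all genes fell to 16 higher and 1 lower. In fits without the block it was lost without 48 hpf replicate 2 (0.0852), 56 hpf replicate 2 (0.0683) or 56 hpf replicate 3 (0.0715). The other leave-one-out fits kept the call, at an adjusted p from 0.00561 (without replicate 1) to 0.0278 (without 48 hpf replicate 3). All leave-one-out fits held fewer pools than the main fit, and why some lost the call was not tested. *vegfab*, *kdrl*, *kdr*, *nrp1a* and *nrp1b* were also below 0 in all 21, and *vegfc* above 0, but their size moved: *vegfc* ran from 0.092 (without replicate 1) to 0.82, *kdrl* from -0.73 to -0.20 (without replicate 3), *kdr* from -0.88 to -0.27 (without replicate 3), *nrp1a* from -0.41 to -0.070 (deposited scale; -0.079 without 48 hpf replicate 2), *nrp1b* from -0.67 to -0.30 (without 48 hpf replicate 3) and *vegfab* from -0.99 to -0.64. *flt4*, -0.41 at its lowest without replicate 2, turned to 0.0082 on the deposited scale, where the median of all genes was 0.11, to 0.11 without replicate 1, 0.046 without 48 hpf replicate 3 and 0.042 without 56 hpf replicate 1, and *vegfaa*, -0.80 at its lowest without replicate 3, turned to 0.082 without replicate 2 and 0.012 without 48 hpf replicate 2.

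Leaving out a replicate number reversed small differences. The *vegfab* share ran from -6.56 to 1.15 percentage points, the *kdr* share from -3.08 to 1.44, the log2 ligand to receptor ratio from -0.32 to 0.026, and relative to the markers *kdrl* from -0.22 to 0.027 and *flt4* from -0.081 to 0.72. Paired by number, the differences were the same by construction. The deviations of same-numbered pools correlated at 0.0290, 0.194 and -0.0542 for replicates 1, 2 and 3. Between pools of different number the correlations ran from -0.165 to 0.0912. Only replicate 2 stood above that range, so the replicate block rests on the methods. With no replicate block limma called *flt1* at an adjusted p of 0.0145 and no other of the 9. Over all genes, 181 higher and 44 lower calls became 436 and 124 without the block, 407 and 115 by the quasi-likelihood test without it, 1209 and 530 by the likelihood ratio test, 1102 and 397 by DESeq2, 267 and 79 unfiltered, 105 and 30 with 10 reads in every library, and 16 to 1601 and 1 to 778 in the leave-one-out fits.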
